A study of Sus scrofa with 21 samples.

Results

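The core circadian clock genes and their direct outputs were examined in the distal small intestine of milk-fed piglets. The set was a list of 10 genes chosen by name (CLOCK, NPAS2, PER1, PER2, PER3, CRY1, NR1D1, NR1D2, DBP and TEF), and 9 of them were found among the 18661 genes in the files through the table of Ensembl pig gene names. The symbol PER3 had no identifier in that table, and it was not analysed here. RNA sequencing covered 21 Danish Landrace/Yorkshire piglets of 24 to 25 days of age, followed from birth. Controls (n = 10) drank a milk replacer. Piglets of the starch group (n = 11) drank it with starch, which the feeding protocol describes as added wheat, and all tissue was taken at euthanasia. The labels give neither the hour of sampling nor the time since the last meal, so no value below can be placed on a daily cycle. They also give no sex, litter or batch, so p-values measure the spread between these piglets only.

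The clock is a transcriptional feedback loop present in most cells. CLOCK, or its relative NPAS2, pairs with BMAL1 and switches on the PER and CRY genes, whose proteins accumulate and shut that pair down again, while the REV-ERB receptors encoded by NR1D1 and NR1D2 repress BMAL1, NPAS2 and, less strongly, CLOCK. DBP and TEF are output transcription factors of the PAR bZIP family, and DBP is a direct target of CLOCK and BMAL1. In gut epithelium the loop is known to follow feeding, and in tissues sampled around the day the PER, NR1D and DBP messages usually peak many hours away from BMAL1 and NPAS2.

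The libraries held 6719264 to 8610458 expected counts per piglet. The tissue label was checked against defining markers. CDX2, the intestinal homeobox gene, read 35.1 to 131 CPM (library-scaled read counts) and VIL1, encoding the brush-border protein villin, 175 to 1590 CPM, while the pancreatic gene CPA1 and the liver gene ALB did not exceed 0.748 and 0.634 CPM. FABP6, the ileal bile acid binding protein, had a median of 1100 CPM but ran from 0.368 to 5800 CPM. An earlier analysis had found control 5, control 8 and starch 3 apart from the others. Some diet differences and pairs of clock genes are given below with and without these piglets. Relations with single genes outside the set, or with measures of tissue and libraries, are not given without them. Control 8 and starch 3 had the lowest summed level of 11 enterocyte markers in their groups (487 and 439 CPM, against group medians of 20600 and 19300 CPM) and the highest summed level of 9 smooth muscle markers (39300 and 24900 CPM, against medians of 11100 and 15600 CPM).

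All 9 genes passed the filter on low counts, but most were scarce. Per kilobase of coding sequence, PER1 was the most abundant at 34.3 ± 7.85 FPKM (SD, n = 21), and its lowest piglet (19.9 FPKM) lay above the highest piglet of every other gene of the set (CRY1, 18.5 FPKM). It was followed by CRY1 (11.1 ± 3.78), NPAS2 (8.63 ± 3.56), DBP (6.87 ± 2.41), NR1D2 (4.85 ± 3.34), TEF (4.81 ± 2.18), NR1D1 (4.48 ± 2.44), CLOCK (4.10 ± 2.16) and PER2 (1.60 ± 0.67 FPKM). From CRY1 downwards, the ranges of genes next to each other in this order overlapped. PER1 rested on a mean of 988 counts per library, whereas TEF rested on 31.9, PER2 on 46.7 and DBP on 48.6. Counting error alone would give coefficients of variation of 17.7%, 14.6% and 14.3% for the last 3 of these genes, and the observed values between piglets were 43.2%, 39.8% and 37.4%. NR1D2 varied most in relative terms (62.9%, against 12.6% from counting), and PER1 least (24.3%, against 3.18%).

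The comparison of diets asks whether added starch moved the clock genes. None of the 9 differed between the diets in edgeR's quasi-likelihood test (adjusted p = 0.9998 for each), and none had an unadjusted p below 0.05. Over all 13127 genes tested, 0% passed at an adjusted p of 0.05 and 1.33% at an unadjusted p of 0.05 (174 genes). DESeq2 also called 0 genes, with 293 at an unadjusted p below 0.05. The median log2 fold change of the 9 genes, given throughout as starch minus control, was 0.12, with 7 above and 2 below 0, beside a median of 0.00 over all genes tested.

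Of the activators, CLOCK (ENSSSCG00000008909) ran from 4.49 to 16.5 CPM in control piglets, with a median of 8.48 CPM, and from 5.02 to 21.9 CPM in starch piglets, with a median of 9.45 CPM. The ranges overlapped almost entirely, with the highest values in control 5 and starch 5 and the lowest in control 8 and starch 11. The log2 fold change was 0.15 (SE 0.27, 95% interval -0.41 to 0.72), and it was -0.02 without starch 5, 0.29 without control 5, control 8 and starch 3 and 0.35 with the summed FPKM of the library as a covariate. NPAS2 (ENSSSCG00000008171), the relative of CLOCK that can take its place beside BMAL1, ran from 10.3 to 32.7 CPM among controls (median 15.6) and from 11.6 to 30.9 CPM in starch piglets (median 22.1). The starch median was the higher one, but the groups covered nearly the same span, and the log2 fold change was 0.21 (95% interval -0.29 to 0.71). It was 0.50 without control 5, control 8 and starch 3, 0.33 without control 8 and 0.06 with the summed FPKM as a covariate, and did not pass in any of these.

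Of the repressors, PER1 (ENSSSCG00000017983), which is also induced acutely by hormones and feeding signals, had the tightest values. It ran from 90.2 to 190 CPM among controls (median 134) and from 79.2 to 164 CPM in starch piglets (median 134). The log2 fold change of -0.11 had a 95% interval of -0.44 to 0.22, the narrowest of the set. PER2 (ENSSSCG00000016338) ran from 2.55 to 9.06 CPM among controls (median 5.23) and from 2.75 to 9.09 CPM in starch piglets (median 6.27), a log2 fold change of 0.16 (-0.38 to 0.70) that was 0.04 without control 5, control 8 and starch 3. CRY1 (ENSSSCG00000000164), encoding the cryptochrome that blocks CLOCK and BMAL1 directly, ran from 8.19 to 26.8 CPM among controls (median 19.4) and from 12.7 to 29.3 CPM in starch piglets (median 16.7). Its fitted difference was 0.05 (-0.35 to 0.45), while its medians lay in the opposite order.

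The REV-ERB genes had the highest coefficients of variation of the set (49.9% for NR1D1 and 62.9% for NR1D2), while TEF had the widest fold range (13.5, against 12.4 for NR1D2 and 8.39 for NR1D1). NR1D1 (ENSSSCG00000036933) ran from 3.09 to 16.9 CPM among controls (median 7.74) and from 2.02 to 14.7 CPM in starch piglets (median 7.51), with a log2 fold change of 0.04 (-0.62 to 0.71) whose sign changed in 13 of 34 alternatives and which was 0.24 without control 5, control 8 and starch 3. NR1D2 (ENSSSCG00000027017) ran from 1.37 to 17.0 CPM among controls (median 6.88) and from 1.51 to 14.5 CPM in starch piglets (median 7.65), with a log2 fold change of 0.12 (-0.77 to 1.01). The value was 0.43 with the replicate number as a block, 0.51 with the summed FPKM of the library as a covariate and 0.30 without control 5, control 8 and starch 3. NR1D2 fell into 2 ranges. It read 1.37 to 2.44 CPM in 6 piglets, namely control 4, 6, 7 and 8 and starch 3 and 11, and 5.03 to 17.0 CPM in the other 15. The 6 low values rested on only 8 to 19 counts each. The whole span of NR1D1 overlaps that of THRA, a thyroid hormone receptor gene, in the RefSeq table of assembly Sscrofa11.1. No strand setting is given in the sources used here, so reads from any shared bases could not be told apart if the counting ignored strand. Whether the counted coding bases of overlapping genes are shared was not checked. THRA had r = 0.45 with NR1D1 and 0.67 with NPAS2 across the piglets. CLOCK likewise overlaps TMEM165 (r = -0.36), and CRY1 overlaps MTERF2 (0.24) and TMEM263 (0.32).

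Among the outputs, DBP (ENSSSCG00000003148) ran from 3.45 to 11.9 CPM among controls (median 6.37) and from 3.36 to 9.24 CPM in starch piglets (median 5.90), a log2 fold change of -0.06 (-0.56 to 0.43). TEF (ENSSSCG00000035152) had the largest fitted difference of the set, 0.33 (-0.32 to 0.98). It ran from 0.513 to 6.30 CPM among controls (median 3.76) and from 1.74 to 6.91 CPM in starch piglets (median 4.73). The lowest control value, in control 8, came from 4 counts, and the log2 fold change without that piglet was 0.20. It was 0.54 with the summed FPKM as a covariate.

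**Figure D1:**
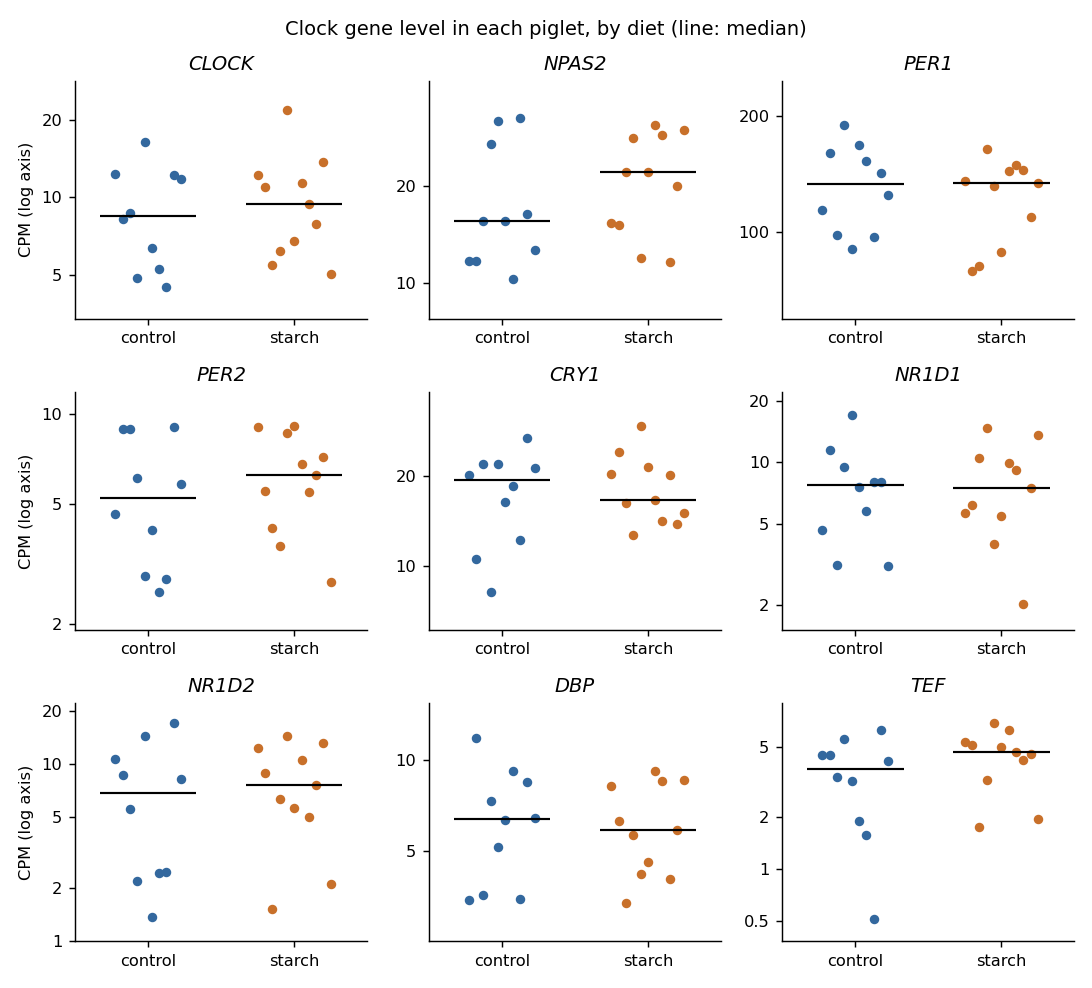
CPM of the 9 clock genes (log axis, a separate scale per gene) in each of 10 control and 11 starch piglets, with a line at the median of each group. The groups overlap for every gene, and NR1D2 shows 6 piglets between 1.37 and 2.44 CPM below the rest.

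Other clock genes gave the same picture between the diets. Of a list of 27 symbols, 21 genes were tested, 12 were higher and 9 lower on starch (median log2 fold change 0.03), and 0 passed or had an unadjusted p below 0.05. BMAL1, the partner of CLOCK, averaged 23.4 ± 6.42 CPM (SD) without starch and 23.7 ± 4.23 CPM with it (log2 fold change 0.02, 95% interval -0.29 to 0.33). CRY2, the second cryptochrome, had a value of -0.18 (-0.51 to 0.16), and HLF, the third PAR bZIP factor, one of 0.17 (-0.48 to 0.81). BHLHE41, encoding the repressor DEC2, had the largest of them, 0.64 (-0.16 to 1.44), at means of 1.60 and 2.49 CPM.

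The second comparison asks whether the PER and NR1D messages ran opposite to those of CLOCK and NPAS2 across piglets. No pair passed as opposed. Of the 8 pairs between CLOCK or NPAS2 and PER1, PER2, NR1D1 or NR1D2, 0 passed as negative and 2 passed as positive. The test regressed log2 CPM of every tested gene on the level of CLOCK or NPAS2 with limma and adjusted p over all 13126 other genes, with each of 36 pairs of clock genes also given a two-sided permutation test over piglets. Against CLOCK, 32.9% of all genes passed (17.0% as positive and 15.9% as negative), and against NPAS2 22.9% (10.5% and 12.4%), so a pair past this threshold was common in these data.

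The positive pairs joined each activator to a different REV-ERB gene. CLOCK and NR1D2 had r = 0.88 (95% interval 0.71 to 0.95, Spearman's rho = 0.88, permutation p = 1e-05 for both, the smallest that 100000 resamples can give; limma adjusted p = 2.01e-05). The value was 0.90 in control and 0.86 in starch piglets, and 0.88 without the 2 piglets farthest from the median of CLOCK. Of all tested genes, 99.6% had a lower r with CLOCK than NR1D2 did. Because 6 piglets stood apart in NR1D2, r was also taken within each side, as a choice made after seeing the data, and a division on NR1D2 itself narrows its range and so lowers r. It was 0.79 among the 15 piglets above 5 CPM. Among the 6 low piglets, where CLOCK ran only from 4.49 to 6.33 CPM and NR1D2 rested on 8 to 19 counts, it was -0.85. TEF with NR1D2, described further on, had r = 0.43 and -0.16 on these sides.

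NPAS2 and NR1D1 had r = 0.70 (95% interval 0.38 to 0.87, rho = 0.67, permutation p = 0.00043 and 0.00095; limma adjusted p = 0.00541). The value was 0.55 in control and 0.88 in starch piglets, and 0.68 without the 2 piglets farthest from the median of NPAS2. NR1D1 was at or above 9.15 CPM in 6 of the 7 piglets with the highest NPAS2 (starch 4, 7, 8 and 11 and control 4 and 5), and read 7.95 CPM in the seventh, control 8. Control 2 went the other way, with NR1D1 at 11.4 CPM and NPAS2 at 11.7 CPM. With 1 piglet left out, r ran from 0.66 (without control 5) to 0.80 (without control 2). The crossed pairs did not pass. NR1D1 with CLOCK had r = -0.23 (-0.60 to 0.23, permutation p = 0.326), and NR1D2 with NPAS2 had r = -0.23 (-0.61 to 0.22, permutation p = 0.303).

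The period genes did not pass as opposed to the activators either. PER1 had r = -0.17 with CLOCK (-0.56 to 0.28, permutation p = 0.464) and -0.12 with NPAS2 (-0.52 to 0.33, permutation p = 0.601). PER2 had r = 0.47 with CLOCK (0.05 to 0.75, rho = 0.45, permutation p = 0.0329, limma adjusted p = 0.0711), a positive value. With NPAS2 it had r = -0.34 (-0.67 to 0.11, permutation p = 0.129). As the hour of sampling is not given, r across piglets does not measure phase. With CLOCK, PER2 passed without control 5 (r = 0.65, adjusted p = 0.00688), without starch 6 (0.53, adjusted p = 0.041), on log2 FPKM (0.54, adjusted p = 0.0446), without control 5, control 8 and starch 3 together (0.57, adjusted p = 0.037) and in starch piglets alone (0.71, adjusted p = 0.0481). With NPAS2 it passed without control 7 (-0.55, adjusted p = 0.0467). The intervals of the 5 negative values all reached below -0.50, so 21 piglets leave room for moderate opposition in these pairs.

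**Figure D2:**
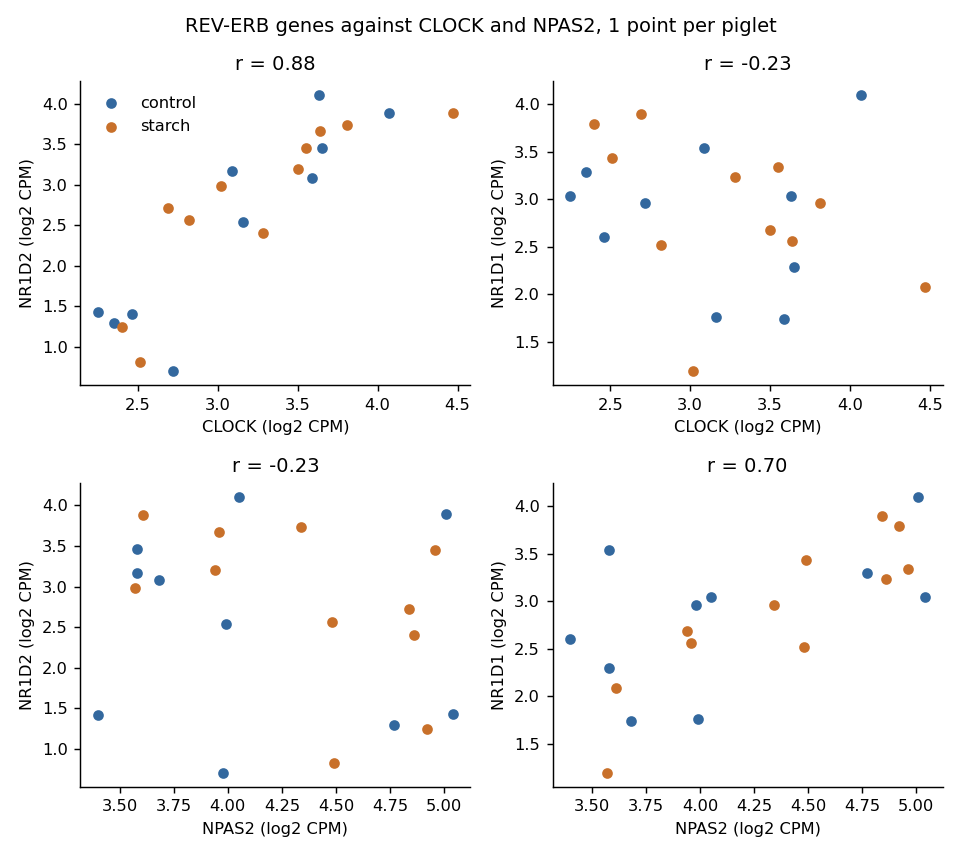
Log2 CPM of NR1D2 (left) and NR1D1 (right) against CLOCK (top) and NPAS2 (bottom), 1 point per piglet, coloured by diet, with Pearson's r above each panel. NR1D2 rises with CLOCK (r = 0.88) and NR1D1 with NPAS2 (r = 0.70), and the crossed panels (r = -0.23 each) show no clear slope.

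The pairs that passed joined CLOCK with NR1D2, CRY1 and TEF, TEF with PER2 and NR1D2, and NPAS2 with NR1D1. Of the 36 pairs, 20 had r above 0 and 16 below 0, and 6 passed, all of them positive. Of the 8 other genes of the set, 3 passed against CLOCK, where 32.9% of all genes did (17.0% as positive, 15.9% as negative). Against NPAS2 1 passed, where 22.9% of all genes did (10.5% and 12.4%). Whether such counts differ from the shares over all genes was not tested. The counts were 1 against PER2, where 11.0% of all genes passed (6.35% as positive, 4.62% as negative), 1 against CRY1 (17.6%, with 9.22% and 8.34%) and 1 against NR1D1 (3.73%, with 1.78% and 1.95%). They were 3 against NR1D2 (28.8%, with 16.1% and 12.8%) and 3 against TEF (29.7%, with 15.5% and 14.2%). Besides the 2 pairs above, these were CLOCK with TEF (r = 0.66, 95% interval 0.32 to 0.85, rho = 0.54, permutation p = 0.00077 and 0.0129, limma adjusted p = 0.00523) and CLOCK with CRY1 (r = 0.62, 0.26 to 0.83, rho = 0.60, permutation p = 0.00298 and 0.00495, adjusted p = 0.0117). TEF also rose with PER2 (r = 0.76, 0.50 to 0.90, rho = 0.75, permutation p = 8.0e-05 and 0.00018, adjusted p = 0.0263) and with NR1D2 (r = 0.71, 0.40 to 0.87, rho = 0.60, permutation p = 0.00025 and 0.00492, adjusted p = 0.0027). Without the 2 piglets farthest from the median of the gene regressed on, these 4 values were 0.56, 0.49, 0.71 and 0.65, of which the first 2 no longer passed (adjusted p = 0.0587 and 0.106). PER2 with NR1D2 (r = 0.54) passed when PER2 was regressed on NR1D2 (adjusted p = 0.0348) but not the other way round (adjusted p = 0.0541). That second fit passed without control 1, control 4, control 5 or starch 6, with r from 0.57 to 0.69. It also passed on log2 FPKM (0.61, adjusted p = 0.0255) and in starch piglets alone (0.74, adjusted p = 0.0327). NR1D2 regressed on CRY1 (r = 0.50, adjusted p = 0.0645) passed in 4 of 31 alternatives.

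The calls of some pairs changed with fewer piglets. In control piglets alone, CLOCK with NR1D2 passed (adjusted p = 0.0317) and the other 5 pairs did not. Of these 6 pairs, CLOCK with NR1D2 and the 3 pairs of TEF passed in starch piglets alone. The difference between the diets was not tested. TEF with PER2 kept r between 0.73 and 0.80 when any 1 piglet was left out but no longer passed without control 8 (adjusted p = 0.105), starch 5 (0.0554) or starch 11 (0.0612). CRY1 with CLOCK no longer passed without starch 5 (r = 0.54, adjusted p = 0.0523), the piglet with the highest level of both genes. Without control 5, control 8 and starch 3, all 6 pairs passed, with r between 0.58 and 0.85.

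PER1 and DBP, both targets of CLOCK and BMAL1, were in none of the pairs that passed. They had r = 0.59 with each other (0.21 to 0.81, rho = 0.58, permutation p = 0.00536 and 0.00691), with 0.75 in control and 0.43 in starch piglets. The pair did not pass over all genes (limma adjusted p = 0.194), in a fit where 0% of genes passed against PER1. Leaving out starch 2 gave r = 0.66 and an adjusted p = 0.0368. Both genes were low in control 3, control 8 and starch 3 (at most 98.3 CPM of PER1 and 3.59 CPM of DBP). Other piglets were low in 1 gene only. PER1 was lowest in starch 2 (79.2 CPM), where DBP read 6.28 CPM. DBP read 3.45 CPM in control 1, where PER1 read 114 CPM. DBP had r = 0.38 with NR1D1 (permutation p = 0.0847), which passed when control 5, control 8 and starch 3 were all left out (0.65, adjusted p = 0.047). Its r with CLOCK was -0.02 (-0.44 to 0.42), and 0% of genes passed against DBP as well. The most negative pair of all was CRY1 with NR1D1 (r = -0.50, -0.77 to -0.09, permutation p = 0.0209; limma adjusted p = 0.0668). It passed without control 5 (r = -0.62, adjusted p = 0.0239), and when the 3 piglets that stood apart were all left out (-0.62, adjusted p = 0.0305). CRY1 with NPAS2 (r = -0.44) passed without control 2 (-0.59, adjusted p = 0.0276).

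**Figure D3:**
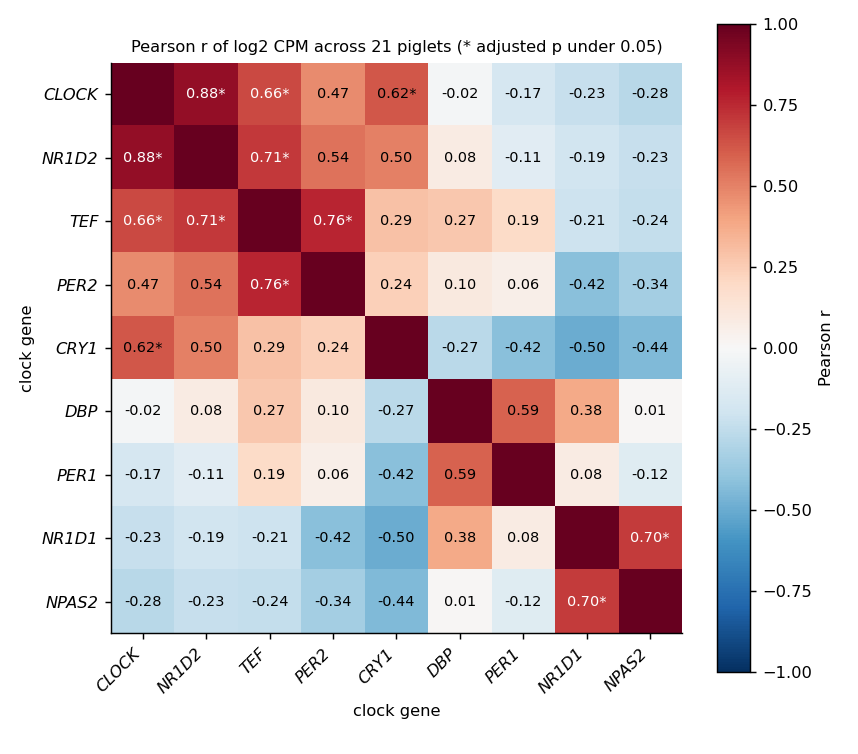
Pearson's r of log2 CPM across the 21 piglets for the 36 pairs of clock genes, with red for positive and blue for negative values and a star for a limma adjusted p below 0.05 over all tested genes. CLOCK, NR1D2, TEF, PER2 and CRY1 form a red block at the top left, NR1D1 and NPAS2 a red pair at the bottom right, and no blue cell has a star.

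BMAL1, which REV-ERB represses and which partners both activators, did not follow any of the 9 genes past the test. Its r was -0.29 with CLOCK, -0.22 with NPAS2, -0.22 with NR1D1, -0.26 with NR1D2, 0.46 with PER1 (limma adjusted p = 0.28) and 0.31 with DBP. Of 21 other clock genes, 8 passed as positive and 0 as negative against CLOCK, where 17.0% and 15.9% of all genes did. Against NPAS2 0 passed as positive and 6 as negative, where 10.5% and 12.4% of all genes did. HLF, the relative of TEF, had r = 0.77 with CLOCK (limma adjusted p = 0.000674) and -0.64 with NPAS2 (adjusted p = 0.0125). PPARGC1A, a coactivator of energy metabolism and of BMAL1 transcription, had 0.64 and -0.52 (adjusted p = 0.00683 and 0.0453), and BHLHE41 0.61 and -0.53 (adjusted p = 0.0125 and 0.0442). BHLHE40, encoding the repressor DEC1, passed against NPAS2 (r = -0.73, limma adjusted p = 0.00266). NFIL3 represses the sites that PAR bZIP factors activate. It had r = -0.58 with TEF (limma adjusted p = 0.0202) and -0.56 with PER2 (limma adjusted p = 0.049). NFIL3 was highest in starch 3 (99.6 CPM), control 8 (51.5), starch 4 (48.9) and control 5 (47.3), and did not exceed 28.5 CPM elsewhere. In control 8, TEF rested on 4 counts. Neither r was taken without control 5, control 8 and starch 3, so how far it rests on them was not tested.

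The genes most like each activator in pattern lay outside the clock. The highest r with CLOCK belonged to AFF4 (0.94), a subunit of the super elongation complex, PPTC7 (0.93) and the kinase gene TAOK1 (0.92). The lowest belonged to ADH5 (-0.85), the splicing factor gene HNRNPA1 (-0.85) and the ribosomal protein gene RPS15A (-0.84). For NPAS2 the highest were INKA2 (0.85), SORBS3 (0.84) and OLFM2 (0.84), and the lowest SLC46A1 (-0.88), the intestinal folate carrier, PIWIL2 (-0.87) and GAB2 (-0.86). NR1D1 was closest to TSPAN5 (0.80), PPP1R14A (0.79), a smooth muscle phosphatase inhibitor, and TNFSF13 (0.75), and farthest from XRN2 (-0.80), PLA2G4F (-0.78) and SNX30 (-0.76). DBP had its highest values with FOXF2 (0.79), ZFYVE19 (0.77) and NOXO1 (0.76) and its lowest with KAZN (-0.78), JOSD1 (-0.75) and AK6 (-0.71), of which 0 passed (adjusted p from 0.21 to 0.253). These are r over 21 piglets for genes picked as the extremes among all tested, and are given as a description.

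**Figure D4:**
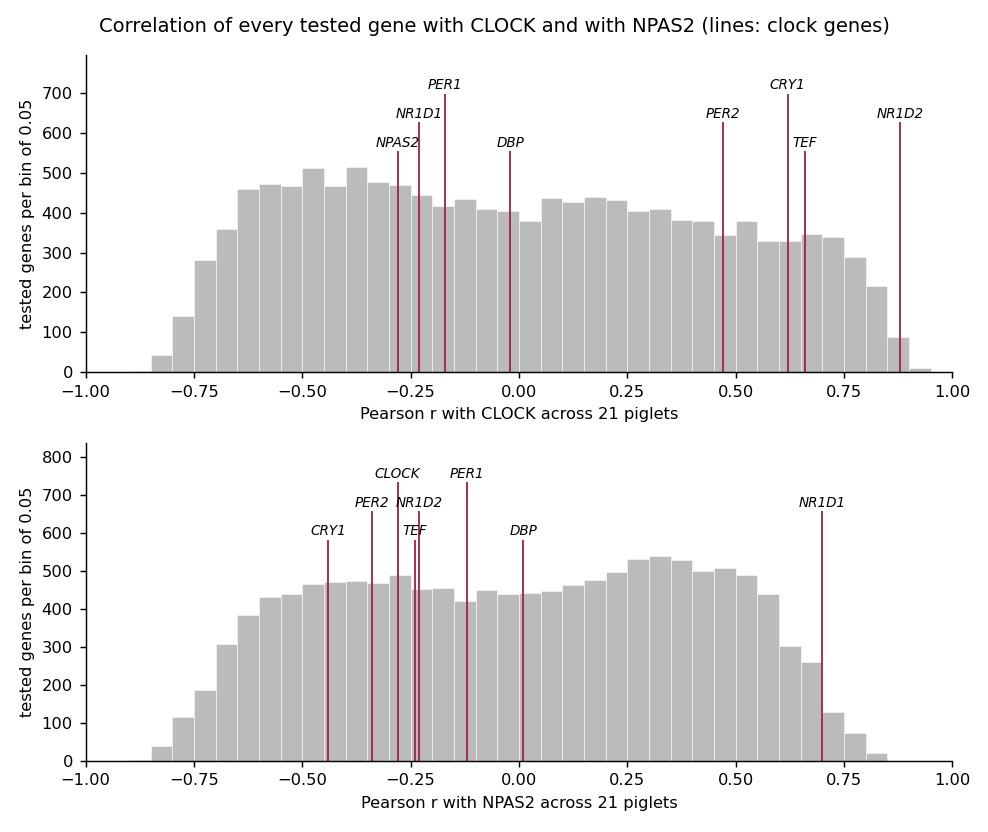
Number of tested genes per bin of Pearson's r with CLOCK (top) and NPAS2 (bottom) over 21 piglets, with lines at the other clock genes. Both distributions are broad, NR1D2 (0.88) lies near the upper end for CLOCK and NR1D1 (0.70) near that for NPAS2, and PER1 and DBP lie near the middle.

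Measures of the libraries and of tissue make-up moved with several of these genes. In whole tissue, fewer cells of a type and less RNA per cell cannot be told apart. Of 99 relations of the 9 genes with 11 such measures, 8 had an adjusted permutation p below 0.05. NPAS2 rose with the smooth muscle score, the mean centred log2 CPM of 9 tested markers out of 10 (r = 0.80, rho = 0.78, permutation p = 5.0e-05, adjusted over the 99 relations p = 0.00247; 0.80 without the 2 piglets farthest from the median score). Where 10.5% of all genes passed as positive against NPAS2, all 9 markers did, with r from 0.71 to 0.83. Their summed level ran from 9250 to 39300 CPM among controls and from 6320 to 24900 CPM in starch piglets, and 0 of them were at 0. NR1D1 had r = 0.61 with the same score (rho = 0.70, permutation p = 0.00373, adjusted p = 0.0462). Against it 3 of 9 markers passed as positive, where 1.78% of all genes did. With the smooth muscle and enterocyte scores as covariates, NPAS2 with NR1D1 had r = 0.44 and no longer passed (adjusted p = 0.336), and 0 of all genes passed against NPAS2, compared with 3011 without covariates. CRY1 with CLOCK (r = 0.54, adjusted p = 0.0565) and TEF with PER2 (r = 0.67, adjusted p = 0.202) also no longer passed in that fit, and the other 3 pairs did. NPAS2 also rose with the score of 6 tested markers of enteric neurons and glia (r = 0.66, rho = 0.71, permutation p = 0.00148, adjusted p = 0.0244), whose summed level ran from 42.8 to 94.4 CPM among controls and from 37.6 to 83.8 CPM in starch piglets.

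CLOCK moved with the summed FPKM of the library, which is high where counts fall on short transcripts. The sum ran from 892021 in starch 5 to 1150122 in starch 11, the piglets with the highest and lowest CLOCK on starch. The r with CLOCK was -0.75 (rho = -0.74, permutation p = 4.0e-05, adjusted p = 0.00247; -0.66 without the 2 piglets farthest from the median sum) and that with NR1D2 -0.69 (rho = -0.72, permutation p = 0.00061, adjusted p = 0.0121). Genes that passed as positive against CLOCK had a median coding length of 2055 bases and those that passed as negative 879 bases, beside 1434 bases over all tested genes. CLOCK itself has coding transcripts of 2376 to 2574 bases, and TEF one of 909 bases. With the summed FPKM as a covariate, an alternative added after seeing the data, 5 genes passed against CLOCK in place of 4320. The r of NR1D2 with CLOCK was then 0.75 (adjusted p = 0.0855), that of TEF 0.46 (adjusted p = 0.526) and that of CRY1 0.36 (adjusted p = 0.659), none of which passed. TEF no longer passed with PER2 (r = 0.70, adjusted p = 0.146) or NR1D2 (r = 0.55, adjusted p = 0.224) either. Of the 6 pairs, NPAS2 with NR1D1 alone passed in that fit (r = 0.61, adjusted p = 0.0227).

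**Figure D5:**
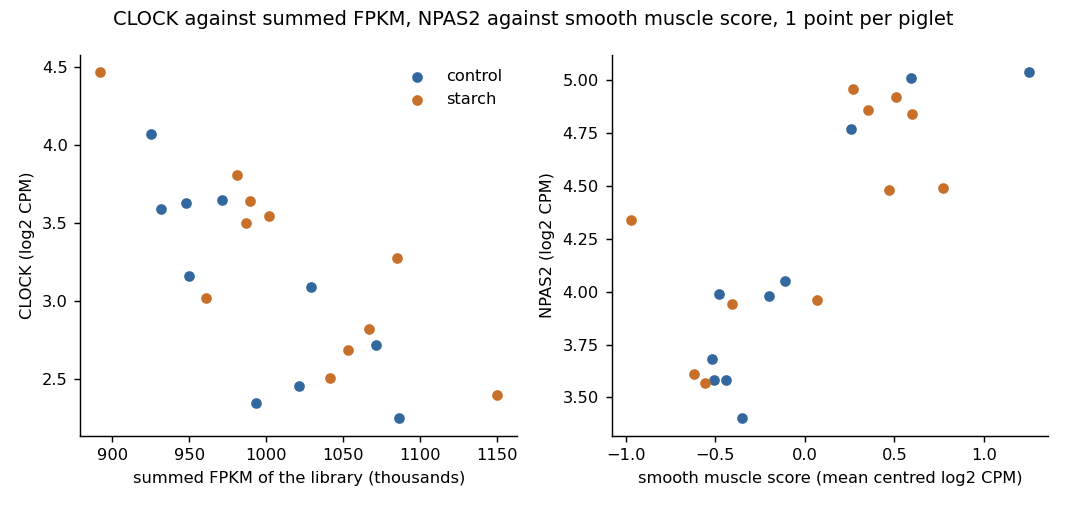
Left, log2 CPM of CLOCK against the summed FPKM of the library, and right, log2 CPM of NPAS2 against the smooth muscle score, 1 point per piglet, coloured by diet. CLOCK falls as the sum rises (r = -0.75), and NPAS2 rises with the score (r = 0.80).

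TEF and PER2 moved against the goblet cell score (5 of 7 markers tested; r = -0.78 and -0.70, rho = -0.71 and -0.68, permutation p = 0.00024 and 0.00041, adjusted p = 0.00792 and 0.0101). The summed level of these markers ran from 514 to 3670 CPM among controls and from 423 to 1620 CPM in starch piglets, and 0 were at 0. Without the 2 piglets farthest from the median score the values were -0.67 and -0.59. TEF also passed with 10 of 11 enterocyte markers as positive (median r = 0.57), where 15.5% of all genes passed as positive. Its r with the enterocyte score was 0.59 (adjusted p = 0.0625) and 0.13 without the 2 piglets farthest from the median score. CRY1 rose with the total count of the library (r = 0.62, rho = 0.52, permutation p = 0.00276, adjusted p = 0.039). The part of the goblet cell score and the total count in the pairs of TEF, PER2 and CRY1 was not tested.

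PER1 and PER2 are known to respond to glucocorticoids and to the signals that raise immediate early genes, so lists of both kinds were set beside them. Against PER1 0% of all genes passed, so that 0 passing in a list says nothing about the list. The 8 tested glucocorticoid targets had a median r of -0.06 with PER1, and FKBP5, a widely used target, had r = -0.15. Of 9 tested immediate early genes, 8 had r below 0 with PER1 (median -0.47), with EGR1 at -0.54 and FOS at -0.50. Of all 13126 other genes tested, 6273 had r above 0 with PER1. The mean score of these genes had r = -0.52 with PER1 (permutation p adjusted over the 99 relations = 0.0711). It was -0.32 without the 2 piglets farthest from the median score. Against PER2, where 11.0% of all genes passed, 0 of either list did. All 9 immediate early genes had r below 0 with PER2 (median -0.45), and the glucocorticoid targets had a median of -0.21. Of all 13126 other genes tested, 6656 had r above 0 with PER2. The immediate early score had r = -0.48 with PER2 (adjusted permutation p = 0.0948), and -0.40 without the 2 farthest piglets. Against NPAS2, 4 of the 9 passed as positive, where 10.5% of all genes did. These were FOS (r = 0.53, limma adjusted p = 0.0363), EGR2 (0.64, adjusted p = 0.0108), IER3 (0.53, adjusted p = 0.042) and MYC (0.68, adjusted p = 0.00627). The immediate early score had r = 0.53 with NPAS2 (adjusted permutation p = 0.0629), and 0.52 without the 2 farthest piglets. Within their groups the score was highest in control 8 (1.09) and starch 3 (1.70), the piglets with the lowest enterocyte levels. Control 5, with an enterocyte score of -4.22, came next among controls (1.03). Of the 8 glucocorticoid targets, 1 passed as positive and 1 as negative against NPAS2, where 10.5% and 12.4% of all genes did (median r = 0.17). The negative one was SGK1, an aldosterone and glucocorticoid target (r = -0.76, limma adjusted p = 0.0016). The positive one was CEBPD (r = 0.55, limma adjusted p = 0.0317). Against NR1D1, SGK1 alone passed (r = -0.64, limma adjusted p = 0.0461), where 1.95% of all genes passed as negative. Of the 8 targets, 6 had r above 0 with NR1D1, as did 6320 of all 13126 other genes tested. KLF9, a glucocorticoid target that is itself rhythmic in many tissues, rose with CLOCK and NR1D2 (r = 0.63 with each, limma adjusted p = 0.00865 and 0.0104). Over the 8 targets the median r was 0.03 with CLOCK and 0.16 with NR1D2. Of them, 1 and 2 passed as positive, where 17.0% and 16.1% of all genes did.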

How the data were processed

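The authors deposited a transcript table for each piglet. Per the file headers it gives an expected count (an estimated count, not normalised) and an FPKM value, which the authors scaled for length and depth. The submitters' processing notes name HISAT and DESeq2 without version or role. Not given in the sources used here are the counting program, the strand setting and the genome build. Transcripts not listed for a piglet were taken as 0. Lengths were coding lengths (99.96 to 99.97% were multiples of 3).

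Expected counts were summed per gene and rounded. Symbols were found for 76.5% of 18661 genes. Diets were compared with edgeR 4.0.16 in R 4.3.3 (quasi-likelihood F test, TMM, filterByExpr with minimum count 10 and total 15), with Benjamini-Hochberg adjustment at 0.05. CPM values use TMM library sizes. Correlations used log2 CPM (prior count 2), with limma 3.58.1 regressions over all genes and permutation tests with 100000 resamples; intervals of r are 95% Fisher intervals. The text names the 9 genes, the listed clock, glucocorticoid and immediate early genes, apart from some not reported here, and for CLOCK, NPAS2, NR1D1 and DBP the 3 genes with the highest and the 3 with the lowest r. Members and lists were chosen with earlier results of these data known. Both tests were tested on simulated data. Alternatives were RLE and upper-quartile scaling, other filters, DESeq2 1.42.0, log2 FPKM with pseudocounts of 0.1, 0.5 and 1, a replicate block, covariates, and left-out piglets. The highest r of log2 CPM between 2 piglets was 0.973.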

Additional observations from a re-analysis of the deposited data

How the results depend on the processing

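Diet called 0 genes in each of 34 alternatives. Genes at an unadjusted p below 0.05 numbered 174, and 524 with no filter, 293 with DESeq2, 519 with the smooth muscle and enterocyte scores, 382 without control 5, control 8 and starch 3, 847 with summed FPKM as a covariate and 117 to 302 with 1 piglet left out. The fold change of NR1D1 (0.04) changed sign on log2 FPKM (-0.01 with pseudocounts of 0.1 and 0.5, 0.00 with 1), with the tissue scores (-0.05), with summed FPKM (-0.16), with the replicate block (-0.03) and for the same piglets without the block (-0.06). With 1 piglet left out it ran from -0.08 to 0.25, that of CLOCK from -0.02 to 0.30, CRY1 from -0.03 to 0.13, NR1D2 from 0.00 to 0.35 and DBP from -0.14 to 0.07. The block called 0 genes. The labels do not say that numbers pair piglets, 4 of 10 same-number pairs deviated together (r above 0.1, range -0.34 to 0.48), and 0 of 10 control piglets correlated best with their own number.

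Genes called against CLOCK (4320) numbered 301 in control piglets alone, 2643 with the tissue scores, 1992 without the 2 farthest piglets, 5 with summed FPKM and 2963 to 5317 with 1 piglet left out. Those against NPAS2 (3011) numbered 0 in starch piglets alone, 0 with the tissue scores, 868 without control 5, control 8 and starch 3, 684 without the 2 farthest piglets and 1456 (without control 8) to 3549 with 1 piglet left out. Fewer piglets were fitted within a diet; otherwise the cause was not tested. Clock genes called against CLOCK numbered 3, and 1 in control piglets alone, 1 without the 2 farthest piglets and 0 with summed FPKM. Against NPAS2 there was 1, and 0 within either diet or with the tissue scores and 2 without control 2 or control 7.

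Among the pairs of CLOCK or NPAS2 above, signs changed in pairs that had not passed. PER1 with CLOCK (-0.17) was 0.06 on log2 FPKM and 0.11 in starch piglets. NR1D1 with CLOCK (-0.23) was 0.00 in control piglets, 0.14 with the tissue scores and 0.24 with summed FPKM. PER1 with NPAS2 (-0.12) was 0.18 in starch piglets, 0.15 without control 5, control 8 and starch 3 and 0.06 without the 2 farthest piglets. With the tissue scores PER2 with NPAS2 was 0.06, NR1D2 with NPAS2 0.22 and NPAS2 with CLOCK 0.27. With summed FPKM the last 2 were 0.14 and 0.13. Low counts, such as the 4 to 59 per library of TEF, limit what small differences could be seen.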
